A study of Mus musculus with 5 samples.

Results

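Thyroid hormone action in the liver was followed through 7 genes, which encode the enzyme that activates the hormone (Dio1), a plasma carrier (Ttr), a membrane transporter (Slc16a10), a cytosolic binding protein (Crym), both nuclear receptors (Thra and Thrb) and a response gene (Thrsp). They were read from all 17 probe sets that the platform annotation assigns to these symbols alone, out of 45101 probe sets and 18194 genes on the arrays. The genes were selected on their symbols and on earlier results from these arrays, the low Dio1 signal of BALB/CByJ among them, so their own levels are a description. The question was whether genes that respond to thyroid hormone follow Dio1 across the strains.

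Liver RNA was hybridised to 5 Affymetrix expression arrays, 1 each for the inbred mouse strains BALB/CByJ, FVB/NJ, NZW/LacJ, RIIIS/J and C57BL/6J. Each array held RNA from a pool of 3 males aged 10 weeks that had received no treatment, and the series was described by its submitters as a follow-up of an expression locus. Because a strain was represented by 1 pool on 1 array, differences between strains could be neither tested nor checked on replicates, and a difference between 2 arrays contains the difference between pools and between hybridisations as well as that between strains. Values are intensities on a linear scale, and ratios are fold changes of intensity or differences of log2 intensity. Each gene was represented by its probe set with the highest mean, and a gene was taken as detected above a floor of 8.22, the 95th percentile of 83 probe sets for chemosensory receptors. That left 12040 genes above the floor in 1 or more strains, called detected here. Of the 17 probe sets, 16 were above it on at least 1 array and 13 on all 5, and all 7 genes were detected, 5 of them (Dio1, Ttr, Slc16a10, Thra and Thrsp) on every array.

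The thyroid gland releases mostly the prohormone thyroxine, which travels in plasma bound to transthyretin, thyroxine-binding globulin and albumin. Liver cells take it up through membrane transporters, and the selenoenzyme encoded by Dio1 removes an iodine from its outer ring to give triiodothyronine, the form that binds the nuclear receptors, or inactivates hormone by removing iodine from the inner ring. The liganded receptors, paired with retinoid X receptors, raise the transcription of genes for lipid synthesis, gluconeogenesis and mitochondrial fuel use. Dio1 is itself induced by triiodothyronine in rodent liver, and for that reason its transcript is also used as a readout of hormone action.

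The arrays carried liver RNA by their markers, with 2 exceptions that touch some comparisons below. The 7 hepatocyte markers read were detected on all 5 arrays, and none of them differed by as much as 2-fold between any strains. All 4 B cell markers read were at least 2-fold higher in FVB/NJ than in the nearest strain, with a summed intensity of 16898 in FVB/NJ and 94.2 to 226 in the other strains. FVB/NJ also had the highest values of 4 of 5 T and NK cell markers by at least 2-fold (Cd3d 165 against 4.42 to 4.57), of the erythroid genes Slc4a1 (1096 against 13.0 to 13.3) and Hbb-b2 (1139 against 22.7 to 76.2), of Marco (172 against 5.40 to 8.27) and of Acta2 (823 against 58.1 to 77.9). Other erythroid, macrophage and stellate cell markers differed from this. Erythroid Alas2 was highest in NZW/LacJ (3444 against 2861 in FVB/NJ), as were macrophage Clec4f (1152 against 600) and Cd5l (1678 against 651). Adgre1 was highest in C57BL/6J and Col1a1 in BALB/CByJ. Epb42 was near the floor, and Csf1r, Col3a1 and Lrat were highest in FVB/NJ by less than 2-fold. All 3 exocrine pancreas markers read stood out in RIIIS/J, with a sum of 34463 in RIIIS/J and 24.8 to 33.3 elsewhere. None of 4 thyroid follicle markers read (Tg, Tshr, Slc5a5 and Pax8) was above the floor on any array. In such bulk tissue fewer cells of a type and less RNA per cell cannot be told apart.

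The promoters of Dio1 and Thrsp are shown because these were the activating enzyme and the response gene with clear signals on these arrays. Each run holds the 250 bases before the gene's start on the strand of the gene, from the RefSeq promoter table of build GRCm38.p6, whose sequence is that of C57BL/6J. Capitals mark matches to the CCAAT box on either strand.
Dio1, chr4:107307169-107307418, minus strand: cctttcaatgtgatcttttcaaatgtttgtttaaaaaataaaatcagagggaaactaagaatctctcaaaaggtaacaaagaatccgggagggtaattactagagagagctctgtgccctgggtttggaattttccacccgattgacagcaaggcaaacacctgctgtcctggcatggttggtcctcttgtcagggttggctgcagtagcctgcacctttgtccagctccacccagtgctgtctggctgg
Thrsp, chr7:97417551-97417800, minus strand: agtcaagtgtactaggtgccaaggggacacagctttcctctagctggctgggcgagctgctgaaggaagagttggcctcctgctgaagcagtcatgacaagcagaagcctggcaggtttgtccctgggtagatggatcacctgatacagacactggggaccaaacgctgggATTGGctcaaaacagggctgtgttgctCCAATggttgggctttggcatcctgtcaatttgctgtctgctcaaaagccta
Both strands were searched for the receptor half-site AGGTCA, its direct repeat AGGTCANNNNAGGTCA, the E-box CACGTG, the D-box TTATGTAA, the CCAAT box CCAAT and the TATA box TATAAA. None of these was found in the Dio1 window. The Thrsp window held the CCAAT box at 2 places, 48 to 52 and 75 to 79 bases before the start, the second of them on the opposite strand. Of 32851 windows in the table, 33.8% held the CCAAT box, 14.0% the half-site, 12.4% the TATA box, 6.02% the E-box, 0.819% the D-box and 0.0152% the direct repeat, so that for each motif a window without a match was the common case. Among the members, 4 had a promoter in the table. Thrb had 2 windows, and the first of them held the half-site at 179 to 184 bases before its start. The second Thrb window held an E-box and a TATA box, and the Slc16a10 window held the CCAAT box at 2 places.

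Dio1 read 55.3 in BALB/CByJ, against 2533 in FVB/NJ, 4959.95 in NZW/LacJ, 4082 in RIIIS/J and 3625 in C57BL/6J. BALB/CByJ thus lay apart from all the others and still above the floor, while the other 4 strains lay within 1.96-fold of each other. The BALB/CByJ signal was 45.8-fold below FVB/NJ, 89.7-fold below NZW/LacJ, 73.8-fold below RIIIS/J and 65.5-fold below C57BL/6J. Among the 12040 detected genes, 52 or 0.432% were at least 2-fold below the nearest strain in BALB/CByJ, a set to which Dio1 belongs by the way it was chosen. Dio1 had a single probe set on the array, so no second probe set could be set against it. In its signal a lower transcript level and a strain difference in the sequence under the probes cannot be told apart, which holds for every comparison with Dio1 below.

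Among the other strains the order of Dio1 was NZW/LacJ, RIIIS/J, C57BL/6J and FVB/NJ from high to low. The steps between neighbours in that order were 0.28, 0.17 and 0.52 on the log2 scale. As a yardstick, the deviations shown by 2 probe sets of a single gene on these arrays differed by a median of 0.17 and a 95th percentile of 0.80 on that scale, over 4628 genes. Each of the 3 steps was below that 95th percentile, whereas the step from FVB/NJ to BALB/CByJ was 5.52. The yardstick measures probe sets, not animals.

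The genes next to Dio1 on the chromosome were read in the same way. Of the 5 nearest genes on each side with a probe set, in the order of the RefSeq gene table of GRCm38.p6, 8 were detected, and for 3 of these, Lrrc42, Hspb11 and Yipf1, the other strains lay high enough above the floor for a 2-fold lower BALB/CByJ value to be seen. None of the 3 was 2-fold below the nearest strain in BALB/CByJ, against 0.585% of the 8891 genes for which this was possible. At that share, none among 3 genes is the common case. The signals of the other 5 were too near the floor to be read this way. Hspb11, the neighbour on one side and a gene of ciliary transport, read 108 in BALB/CByJ, against 100.3 in FVB/NJ, 117 in NZW/LacJ, 89.0 in RIIIS/J and 113 in C57BL/6J. Yipf1, the neighbour on the other side, which encodes a Golgi membrane protein, read 504 in BALB/CByJ, against 489 in FVB/NJ, 1092 in NZW/LacJ, 1068 in RIIIS/J and 785 in C57BL/6J. BALB/CByJ and FVB/NJ were thus close to each other for Yipf1 and below the other strains. Tceanc2 had the widest spread of these neighbours, 7.01-fold, with 32.8 in BALB/CByJ against 24.2 in FVB/NJ, 14.3 in NZW/LacJ, 57.6 in C57BL/6J and a value under the floor in RIIIS/J, so that its spread is a lower bound.

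**Figure D1:**
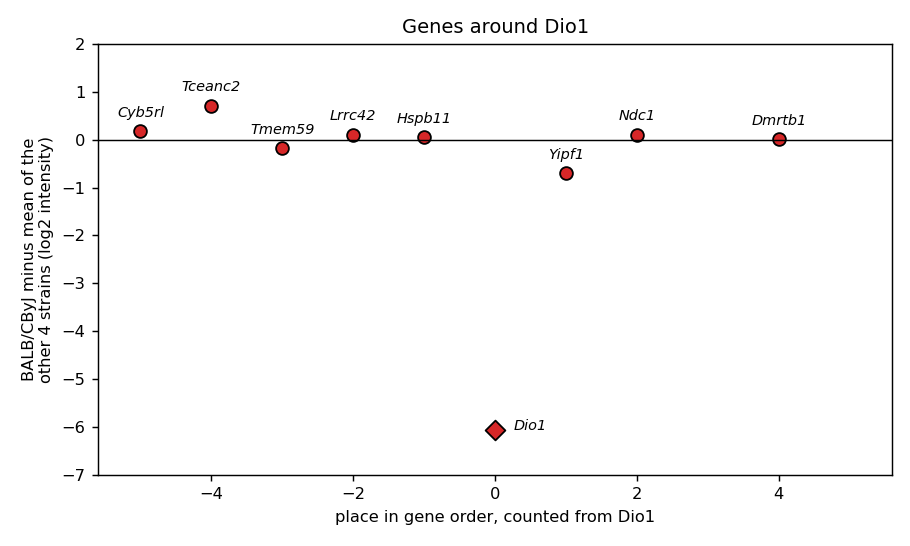
The log2 intensity of BALB/CByJ minus the mean of the other 4 strains (vertical axis) is plotted for Dio1 (diamond) and the detected genes around it (circles), by place in gene order counted from Dio1 (horizontal axis), 1 array per strain. Dio1 stands at -6.06, and the 8 detected neighbours lie between -0.70 and 0.71. Only 3 of the 8 (Lrrc42, Hspb11 and Yipf1) lay high enough above the floor for a 2-fold lower BALB/CByJ value to be seen.

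Ttr, which encodes transthyretin, a plasma carrier of thyroxine and of retinol-binding protein, had nearly equal signals across the strains. Its probe set with the highest mean read 63027 in BALB/CByJ, against 59490.1 in FVB/NJ, 63027 in NZW/LacJ, 67939 in RIIIS/J and 63027 in C57BL/6J. The highest strain was 1.14-fold above the lowest, and over the 4 Ttr probe sets this ratio was 1.04 to 1.18. Values on 3 of the arrays were identical, as were values on at least 2 arrays for 29.1% of all probe sets, so such equality comes from the deposited values and does not measure how alike the livers were. FVB/NJ was lowest on all 4 Ttr probe sets. The Ttr signals lay near the highest intensity of each array, 79512 to 89718, as did those of Alb and Apoa1, which spread 1.17-fold and 1.11-fold, and whether signals at this level still follow the amount of transcript was not tested.

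Slc16a10 encodes the aromatic amino acid transporter MCT10, which also carries thyroid hormone across the cell membrane. It read 475 in BALB/CByJ, against 335 in FVB/NJ, 276 in NZW/LacJ, 457 in RIIIS/J and 504 in C57BL/6J. A second probe set read 290.2 in BALB/CByJ, against 194 in FVB/NJ, 168 in NZW/LacJ, 359 in RIIIS/J and 269.9 in C57BL/6J. On both probe sets NZW/LacJ was lowest and FVB/NJ next, and the remaining 3 strains were higher, in an order that the probe sets did not share. The ratio of the highest to the lowest strain was 1.82 on the first probe set and 2.14 on the second. NZW/LacJ, lowest for this transporter, was the strain highest for Dio1. Its 2 further probe sets read 14.2 to 18.5 and 7.57 to 13.6, near the floor.

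Crym encodes mu-crystallin, a ketimine reductase that binds triiodothyronine in the cytosol. Its single probe set read 68.5 in BALB/CByJ, against 6.58 in FVB/NJ, 6.58 in NZW/LacJ, 6.45 in RIIIS/J and 6.58 in C57BL/6J. BALB/CByJ was the only array on which Crym was above the floor, and it was at least 8.34-fold higher there than in any other strain. With a higher floor of 28.2, the 99th percentile of those chemosensory probe sets, that bound is at least 2.43-fold. Genes at least 2-fold above the nearest strain in BALB/CByJ made up 0.789% of those detected. BALB/CByJ was the strain apart for 2 of the 7 genes, low for the activating enzyme and high for the cytosolic binder. The 7 genes were chosen with earlier results from these arrays known, so this count is a description.

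**Figure D2:**
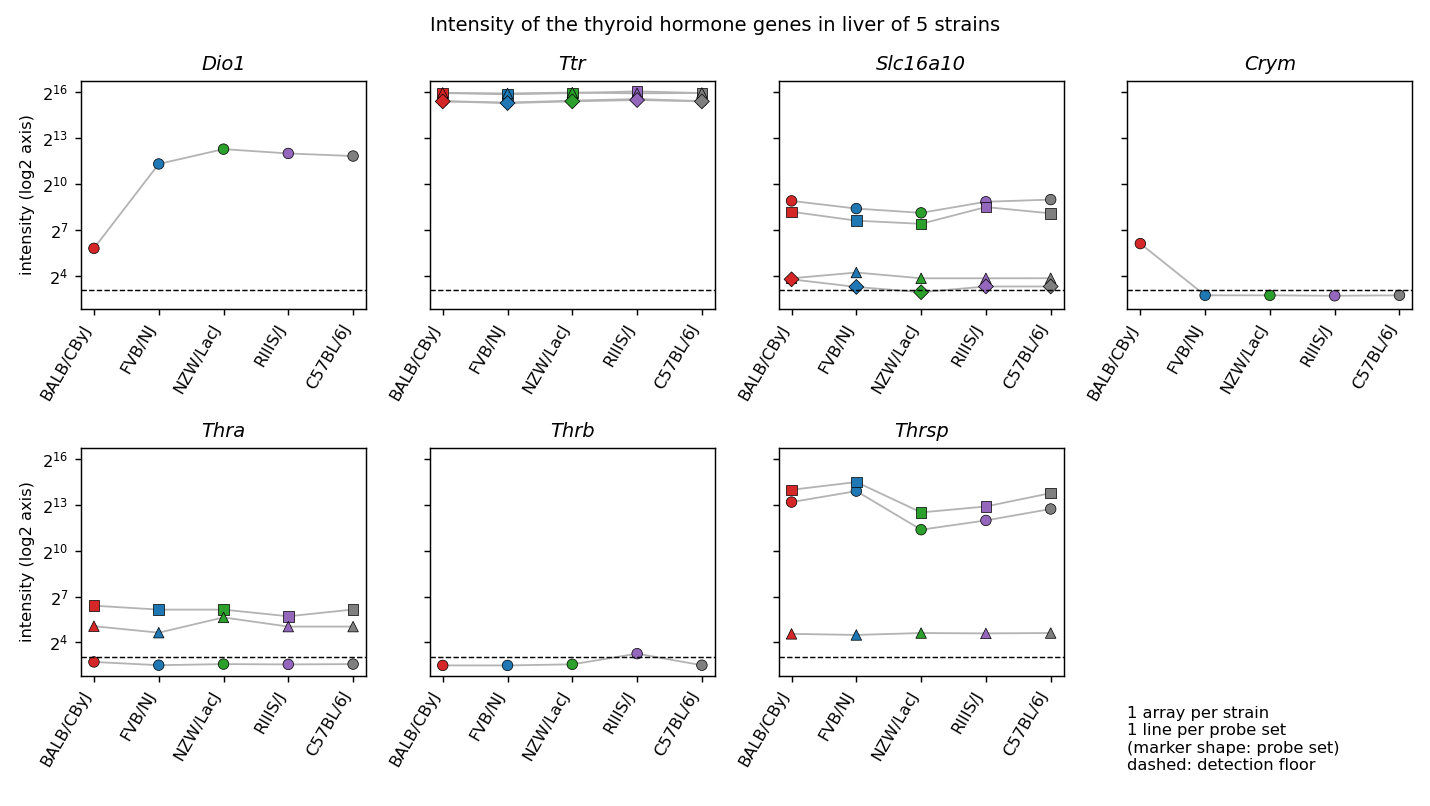
Intensity (vertical axis, log2 scale) of each probe set of the 7 genes in the 5 strains (horizontal axis), 1 array per strain; each line and marker shape is a probe set, colours are strains, and the dashed line is the detection floor of 8.22. BALB/CByJ stands apart for Dio1 (55.3 against 2533 to 4959.95) and for Crym (68.5 against values under the floor).

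The receptor genes gave weak signals. Thra, which encodes the alpha receptor, read 84.6 in BALB/CByJ, against 70.8 in FVB/NJ, 70.8 in NZW/LacJ, 52.4 in RIIIS/J and 71.1 in C57BL/6J on its brightest probe set. Another Thra probe set read 33.4 in BALB/CByJ, against 24.9 in FVB/NJ, 49.7 in NZW/LacJ, 32.8 in RIIIS/J and 32.8 in C57BL/6J, and the other was under the floor on all arrays. The 2 detected probe sets gave different orders, with RIIIS/J lowest on the first and FVB/NJ lowest on the second, so no order of the strains can be given for Thra. BALB/CByJ was not lower than every other strain on either.

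Thra overlaps the clock gene Nr1d1 in opposite orientation in mammals. Nr1d1, which encodes the repressor REV-ERB alpha, read 223 in BALB/CByJ, against 95.4 in FVB/NJ, 136 in NZW/LacJ, 26.2 in RIIIS/J and 314 in C57BL/6J. It was lowest in RIIIS/J, as the brightest Thra probe set was, but the 2 genes had different highest strains, and the part of the overlap in the Thra signal was not tested.

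Thrb encodes the beta receptor, the main receptor form of rodent liver. Its single probe set was under the floor on 4 arrays, at 5.64 in BALB/CByJ, 5.64 in FVB/NJ, 5.93 in NZW/LacJ and 5.69 in C57BL/6J, and read 9.61 in RIIIS/J. RIIIS/J was thus at least 1.17-fold higher than the other strains, a bound close to level, and with the higher floor of 28.2 Thrb was not detected on any array. No order of the strains can be read from this probe set.

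Thrsp, also called Spot 14, encodes a regulator of fatty acid synthesis and is a classic thyroid hormone response gene of rodent liver that also responds to carbohydrate and insulin. Its brightest probe set read 16156 in BALB/CByJ, against 22965 in FVB/NJ, 5797 in NZW/LacJ, 7587 in RIIIS/J and 13899.9 in C57BL/6J. BALB/CByJ was the second highest strain, 2.79-fold above NZW/LacJ and 2.13-fold above RIIIS/J, and close to C57BL/6J at a ratio of 1.16. A second probe set read 9260.2 in BALB/CByJ, against 15230.1 in FVB/NJ, 2649.7 in NZW/LacJ, 4032 in RIIIS/J and 6771 in C57BL/6J, which is the same order of all 5 strains. The ratio of FVB/NJ to NZW/LacJ was 3.96 on the first probe set and 5.75 on the second. Its dim probe set, at 22.4 to 24.5, was nearly level.

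Thrsp did not have the strain order of the Dio1 signal. The strain with the lowest Dio1 signal was second highest for Thrsp, and the strain highest for Dio1, NZW/LacJ, was lowest for Thrsp. The order of Thrsp without BALB/CByJ was FVB/NJ, C57BL/6J, RIIIS/J and NZW/LacJ from high to low. This is the reverse of the Dio1 order on the same 4 arrays. The Dio1 steps in that order, 0.17 to 0.52 log2, were each below 0.80, the 95th percentile of probe set disagreement, so the reversal rests on small steps. With 5 arrays no correlation is given. Of the 4 steps between neighbours in the Thrsp order, the one between C57BL/6J and RIIIS/J, at 0.87 log2, was above the 95th percentile of probe set disagreement, and the others were 0.22 to 0.51.

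**Figure D3:**
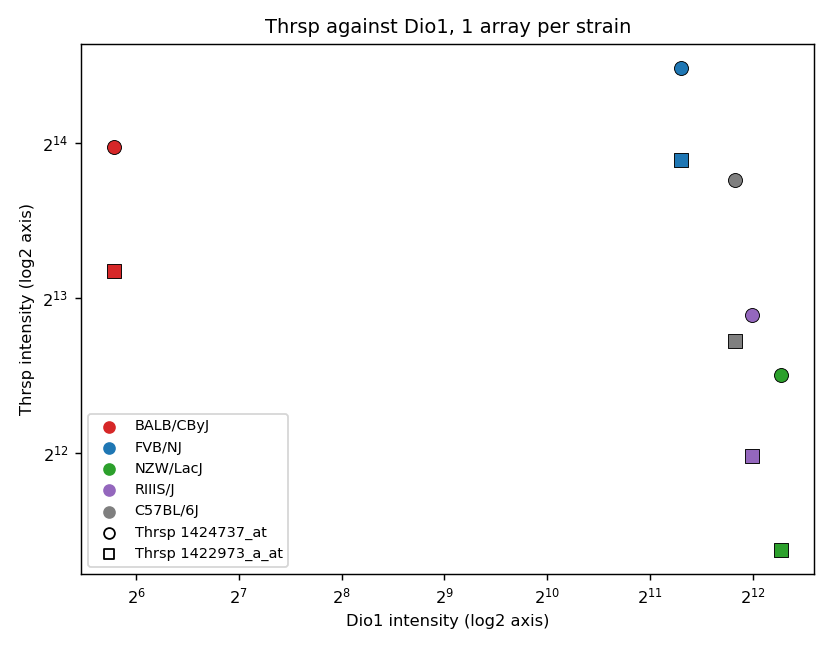
Intensity of Thrsp (vertical axis, log2 scale) on its 2 bright probe sets (circles and squares) against intensity of Dio1 (horizontal axis, log2 scale), with 1 array per strain and strains as colours. BALB/CByJ lies far to the left at a Dio1 intensity of 55.3 with Thrsp at 16156, above the NZW/LacJ, RIIIS/J and C57BL/6J points of the same probe set.

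A list of hepatic genes linked to the thyroid hormone response was then read, Thrsp included. It was written from textbook knowledge, and many of its genes also answer to insulin, glucagon, feeding or sterols. No direction of response was set for each gene, so the counts and medians below do not separate raised from lowered genes. Of 24 genes listed, 20 were on the table and 19 were detected. Hr, near the floor in every strain, could not have been called 2-fold lower. In BALB/CByJ, 0 of the 19 were at least 2-fold below the nearest strain and 0 were at least 2-fold above it. Such calls made up 0.432% and 0.789% of all detected genes, so counts of 0 do not set the list apart. The median of BALB/CByJ minus the mean of the other strains was 0.07 on the log2 scale over the list and 0.00028 over all detected genes, with 12 list genes above 0 and 7 below. BALB/CByJ was the lowest strain for 1 of the 19, against 12.4% of all detected genes, and the highest for 3, against 21.4%.

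The single list gene with its lowest value in BALB/CByJ was Scd1, the stearoyl-CoA desaturase gene. Scd1 read 15420.0 in BALB/CByJ, against 28785 in FVB/NJ, 25929 in NZW/LacJ, 22835 in RIIIS/J and 34728 in C57BL/6J. Fasn, which encodes fatty acid synthase, read 986 in BALB/CByJ, against 2037 in FVB/NJ, 829 in NZW/LacJ, 1991 in RIIIS/J and 2725 in C57BL/6J, so that BALB/CByJ and NZW/LacJ formed the low pair. Acacb, the gene of the mitochondrial acetyl-CoA carboxylase, whose product restrains fatty acid oxidation, read 186 in BALB/CByJ, against 184 in FVB/NJ, 233 in NZW/LacJ, 249 in RIIIS/J and 389 in C57BL/6J. These 3 were the list genes at least 2-fold lower in BALB/CByJ than in C57BL/6J, 15.8% of the list against 2.03% of all detected genes. No list gene was 2-fold higher in BALB/CByJ than in C57BL/6J, against 2.77% of all detected genes. Me1, the malic enzyme gene that supplies NADPH to lipid synthesis, read 3064 in BALB/CByJ, against 3631 in FVB/NJ, 1989 in NZW/LacJ, 3581 in RIIIS/J and 4785 in C57BL/6J, and was lowest in NZW/LacJ. Srebf1, also on the list, read 2146 in BALB/CByJ, against 2929 in FVB/NJ, 2101 in NZW/LacJ, 2332 in RIIIS/J and 2862 in C57BL/6J. BALB/CByJ was thus close to the lowest strain, NZW/LacJ, and differed from the mean of the others by -0.24 log2. Acaca and Mlxipl were not low in BALB/CByJ, at 0.07 and 0.04 log2 above the mean of the others. Acaca, the gene of the cytosolic acetyl-CoA carboxylase, read 438 in BALB/CByJ, against 423 in FVB/NJ, 309 in NZW/LacJ, 379 in RIIIS/J and 604 in C57BL/6J. Mlxipl, which encodes the carbohydrate-responsive factor ChREBP, read 1591 in BALB/CByJ, against 1728 in FVB/NJ, 1248 in NZW/LacJ, 1158 in RIIIS/J and 2276 in C57BL/6J.

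The list genes furthest above the mean of the other strains in BALB/CByJ were Pck1, Cyp7a1 and Cpt1a. Pck1, which encodes the cytosolic phosphoenolpyruvate carboxykinase, read 26963.5 in BALB/CByJ, against 15077 in FVB/NJ, 12143 in NZW/LacJ, 8196 in RIIIS/J and 16061 in C57BL/6J. Cyp7a1, the rate-limiting enzyme of bile acid synthesis, read 6805 in BALB/CByJ, against 6814 in FVB/NJ, 2217 in NZW/LacJ, 1749.8 in RIIIS/J and 5113 in C57BL/6J. Cpt1a, the gate of mitochondrial fatty acid entry, read 3218 in BALB/CByJ, against 2272 in FVB/NJ, 1141 in NZW/LacJ, 1908 in RIIIS/J and 2309.9 in C57BL/6J. BALB/CByJ was highest for Pck1 and Cpt1a and level with FVB/NJ for Cyp7a1. Klf9, a transcription factor gene induced by triiodothyronine, read 15864 in BALB/CByJ, against 9247 in FVB/NJ, 7342 in NZW/LacJ, 9668 in RIIIS/J and 17044 in C57BL/6J. G6pc, the glucose-6-phosphatase gene, was the list gene at least 2-fold from the nearest strain on any array, with 5504 in RIIIS/J against 1542 in BALB/CByJ, 2036 in FVB/NJ, 1243 in NZW/LacJ and 1687 in C57BL/6J. Its BALB/CByJ value differed from the mean of the other strains by -0.51 log2, so the gluconeogenic genes Pck1 and G6pc lay on opposite sides. G6pc was high in the strain whose pancreatic markers were high, whose part in this value was not tested. Among all detected genes, those at least 2-fold above the nearest strain made up 5.76% in FVB/NJ, 0.756% in NZW/LacJ, 0.955% in RIIIS/J and 0.49% in C57BL/6J. Those at least 2-fold below made up 0.532% in FVB/NJ, 0.714% in NZW/LacJ, 1.7% in RIIIS/J and 0.415% in C57BL/6J.

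NZW/LacJ, the strain with the most Dio1 signal, was the lowest strain for 9 of the 19 list genes, against 16.6% of all detected genes. Its median against the other strains was -0.39 on the list and -0.014 over all detected genes, and 16 of the 19 were below the mean of the other strains. Compared with NZW/LacJ, 5 list genes (Thrsp, Klf9, Pck1, Cpt1a and Cyp7a1) were at least 2-fold higher in BALB/CByJ, 26.3% of the list against 5.04% of all detected genes. None was 2-fold lower, against 3.13%. Compared with RIIIS/J, Thrsp, Pck1 and Cyp7a1 were at least 2-fold higher in BALB/CByJ (15.8% against 7.04%) and G6pc and Fasn at least 2-fold lower (10.5% against 3.5%). Compared with FVB/NJ, Fasn was at least 2-fold lower in BALB/CByJ (5.26% against 7.69%) and 0 were 2-fold higher (background 3.24%). These comparisons share the BALB/CByJ array.

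**Figure D4:**
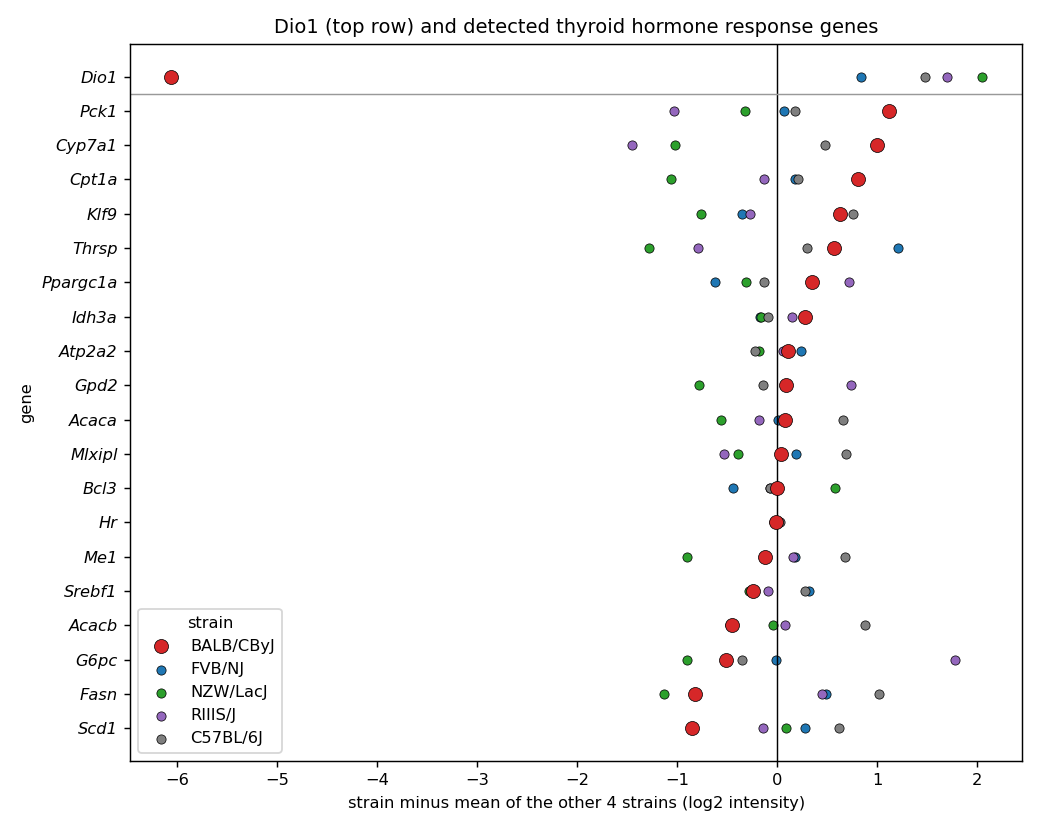
Log2 intensity of each strain minus the mean of the other 4 (horizontal axis) for Dio1 (top row) and the 19 detected response genes (rows below, sorted by BALB/CByJ), with colours for strains and larger points for BALB/CByJ. Dio1 stands at -6.06 in BALB/CByJ, while the response genes of that strain lie between -0.85 and 1.11.

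Clock genes differed widely between the arrays. Of 16 clock genes read, 15 were detected, and 14 of the 15 had a highest strain at least 2-fold above the lowest, against 30.2% of all detected genes. Dbp, a rhythmic transcription factor gene, read 8951 in BALB/CByJ, against 4940 in FVB/NJ, 1023 in NZW/LacJ, 75.5 in RIIIS/J and 6439 in C57BL/6J. Per2 read 188 in BALB/CByJ, against 183 in FVB/NJ, 29.0 in NZW/LacJ, 22.7 in RIIIS/J and 87.7 in C57BL/6J. Arntl, which peaks in the opposite phase, read 14.1 in BALB/CByJ, against 14.1 in FVB/NJ, 68.1 in NZW/LacJ, 156 in RIIIS/J and 13.7 in C57BL/6J. Of the other clock genes 2-fold from the nearest strain, Ciart was higher in BALB/CByJ, at 212 there against 16.3 to 75.6 elsewhere. Nr1d1, given above, and Tef and Nr1d2 were lower in RIIIS/J, Tef at 133 there against 301 to 1530.3 elsewhere and Nr1d2 at 987 there against 2131 to 4799 elsewhere. Npas2 was higher in NZW/LacJ, at 27.0 there against 12.7 in RIIIS/J and values under the floor in the remaining strains. NZW/LacJ and RIIIS/J, low for Thrsp, Cyp7a1 and Pck1, were low for Dbp and Per2 and high for Arntl. Not all clock genes were ordered in this way, since Nr1d1 was lower in FVB/NJ than in NZW/LacJ, and Cry1 read 136 in BALB/CByJ, 272 in FVB/NJ, 254 in NZW/LacJ, 375 in RIIIS/J and 102 in C57BL/6J. The hour of collection is not given in the sources used here, and the part of clock phase in the levels of the response genes was not tested. BALB/CByJ, FVB/NJ and C57BL/6J were close to each other for Arntl, at 13.7 to 14.1, but not for Ciart, at 212, 35.7 and 75.6 in that order. The part of clock phase in the Dio1 signal was not tested.

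Other carriers and transporters of thyroid hormone showed no strain apart from the nearest by 2-fold. Over all detected genes such calls made up 0.415% to 5.76%, depending on strain and direction. Of 11 listed, 10 were on the table and 8 were detected. The median of BALB/CByJ minus the mean of the others was -0.13 log2, with 2 genes above 0 and 6 below. Slco1a1, an organic anion transporter gene, read 4010.4 in BALB/CByJ, against 6580.4 in FVB/NJ, 7539 in NZW/LacJ, 5749.7 in RIIIS/J and 4658 in C57BL/6J. Slco1a4, a related transporter gene, read 745 in BALB/CByJ, against 2579 in FVB/NJ, 710.1 in NZW/LacJ, 563 in RIIIS/J and 1289.8 in C57BL/6J, and its FVB/NJ value lay 0.9996 log2 above C57BL/6J, just short of 2-fold. Serpina7, the gene of thyroxine-binding globulin, read 216 in BALB/CByJ, against 305 in FVB/NJ, 398 in NZW/LacJ, 123 in RIIIS/J and 652 in C57BL/6J, a 5.32-fold spread.

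Enzymes that conjugate, deiodinate or otherwise turn over iodothyronines were read next. Of 13 listed, 8 were on the table and 7 were detected, and none was 2-fold from the nearest strain in any strain. Such calls made up 0.415% to 5.76% of all detected genes, depending on strain and direction. The median of BALB/CByJ minus the mean of the others was -0.14 log2, with 3 genes above 0 and 4 below. Dio2, the other activating deiodinase gene, was under the floor on all 5 arrays. Sult1b1, a sulfotransferase gene, read 378 in BALB/CByJ and 378 in FVB/NJ, against 1201 in NZW/LacJ, 1202 in RIIIS/J and 708 in C57BL/6J, so that the 2 strains lowest for Dio1 were the lowest here too. Sult1a1, a phenol sulfotransferase gene, read 6141 in BALB/CByJ, against 8938 in FVB/NJ, 7417 in NZW/LacJ, 13799 in RIIIS/J and 8984 in C57BL/6J. Aadat, an aminotransferase gene, read 1597 in BALB/CByJ, against 1693 in FVB/NJ, 2888 in NZW/LacJ, 2464 in RIIIS/J and 2411 in C57BL/6J. These 3 are the genes of the list furthest from the mean of the others in BALB/CByJ. On the other side, the glucuronosyltransferase gene Ugt2b35 read 11879 in BALB/CByJ, against 8080.2 in FVB/NJ, 11319 in NZW/LacJ, 6000.8 in RIIIS/J and 9474 in C57BL/6J, and Iyd, the gene of iodotyrosine deiodinase, was also highest in BALB/CByJ, at 2629 there against 2249 to 2487 elsewhere.

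Because the Dio1 enzyme contains selenocysteine, transcripts of other selenoproteins and of the machinery that inserts this amino acid were compared. Of 25 such genes, 23 were detected. In BALB/CByJ, 0 of the 23 were at least 2-fold below or above the nearest strain, against 0.432% and 0.789% of all detected genes. A count of 0 is near those shares. Their BALB/CByJ median was 0.017 log2, with 14 above 0 and 9 below. Selenow, a small redox selenoprotein gene, read 2355 in BALB/CByJ, against 3685 in FVB/NJ, 4975 in NZW/LacJ, 5766 in RIIIS/J and 2939 in C57BL/6J. Selenof, of the endoplasmic reticulum, read 6977 in BALB/CByJ, against 5690.5 in FVB/NJ, 20587 in NZW/LacJ, 13346 in RIIIS/J and 6544 in C57BL/6J. Txnrd1, the cytosolic thioredoxin reductase gene, read 1868 in BALB/CByJ, against 1545 in FVB/NJ, 1069 in NZW/LacJ, 1276 in RIIIS/J and 1499.97 in C57BL/6J. Secisbp2, whose protein binds the insertion element of selenoprotein mRNAs, read 255 in BALB/CByJ, against 248 in FVB/NJ, 248 in NZW/LacJ, 218 in RIIIS/J and 209.6 in C57BL/6J. FVB/NJ was the lowest strain for 15 of the 23, against 26.6% of all detected genes, in the array whose B cell markers were high, and the part of those cells in this count was not tested.

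Partners and coregulators of the receptors were detected for all 14 genes on the table out of 16 listed. In BALB/CByJ the list median was 0.12 log2. There 0 of the 14 were 2-fold below or above the nearest strain, against 0.432% and 0.789% of all detected genes. A count of 0 is near those shares. Rxra, the gene of the retinoid X receptor that pairs with the thyroid hormone receptors, read 1897 in BALB/CByJ, against 1390.4 in FVB/NJ, 1165 in NZW/LacJ, 879 in RIIIS/J and 1697 in C57BL/6J. Crebbp, a histone acetyltransferase coactivator gene, read 318 in BALB/CByJ, against 454 in FVB/NJ, 309 in NZW/LacJ, 549 in RIIIS/J and 393 in C57BL/6J. Ncoa3, a steroid receptor coactivator gene, was at least 2-fold above the nearest strain in FVB/NJ, at 201 there against 81.6 in BALB/CByJ, 48.4 in NZW/LacJ, 89.2 in RIIIS/J and 89.2 in C57BL/6J. Prmt1, an arginine methyltransferase gene, was at least 2-fold below the nearest strain in RIIIS/J, at 74.5 there against 367 in BALB/CByJ, 479 in FVB/NJ, 323 in NZW/LacJ and 282 in C57BL/6J. The 2 genes that passed the 2-fold threshold did so on the arrays with high B cell or pancreatic markers, whose part in these values was not tested.

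**Figure D5:**
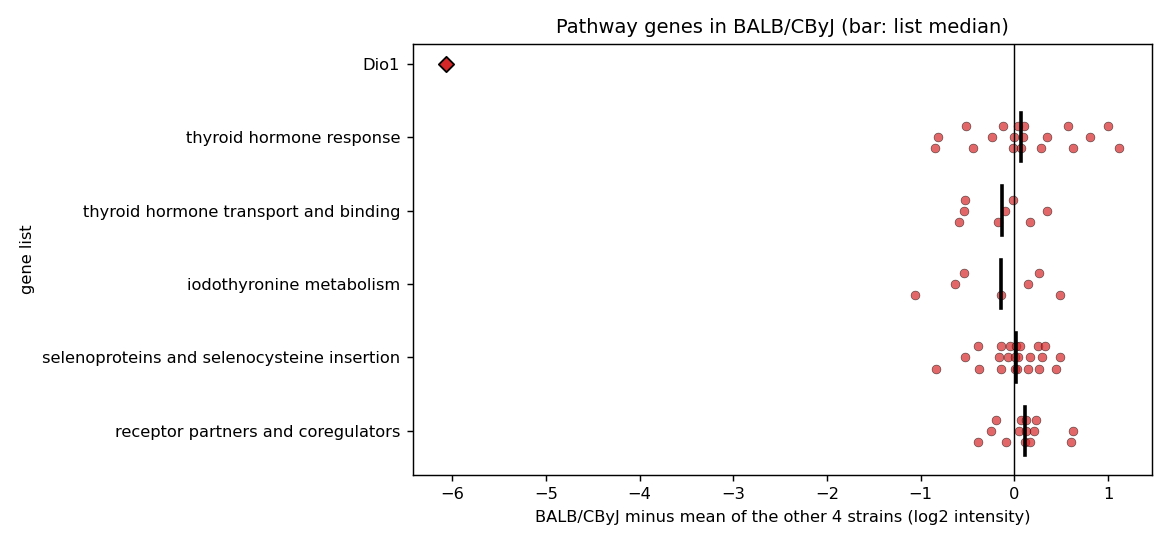
Log2 intensity of BALB/CByJ minus the mean of the other 4 strains (horizontal axis) for Dio1 (diamond) and for each detected gene of 5 pathway lists (circles, 1 row per list), with a bar at the list median. Dio1 stands at -6.06, the list medians lie between -0.14 and 0.12, and the gene lowest among the lists is Sult1b1 at -1.06.

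The genes whose profile over the 5 strains was most like that of Dio1 were sought among all detected genes by the root mean square difference of centred log2 values. The closest were Camk1d, a calcium-dependent kinase gene, at 0.72 log2, Plscr2, a phospholipid scramblase gene, at 0.74, the inflammasome gene Nlrp12 at 0.80, the lipid droplet gene Fitm1 at 1.07 and the sulfotransferase gene Sult5a1 at 1.13. All 5 were low in BALB/CByJ, from 7.61-fold to at least 18.8-fold below the nearest strain. This follows from the search, because the low BALB/CByJ value dominates the Dio1 profile. Camk1d read 16.4 in BALB/CByJ, against 166 in FVB/NJ, 895 in NZW/LacJ, 767 in RIIIS/J and 671 in C57BL/6J, the same order of strains as Dio1.

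The profiles most like that of Thrsp were nearer to it. They were those of Id1, an inhibitor of differentiation gene, at 0.091 log2, Gas6, the gene of a ligand of TAM receptors, at 0.11, the nucleolin gene Ncl at 0.15, the splicing kinase gene Clk1 at 0.16 and Atxn7 at 0.17. Gas6 read 341 in BALB/CByJ, against 419.6 in FVB/NJ, 132 in NZW/LacJ, 156 in RIIIS/J and 274 in C57BL/6J. None of these 5 was on the list of response genes, which held 19 of the 12040 detected genes, so their absence from it is uninformative. For Crym the closest, looked up after its values were seen, were Nbdy at 0.060 log2, Catsperd at 0.11 and Cpne8 at 0.13. All were high in BALB/CByJ, which again follows from the search, and these distances rest in part on values raised to the floor.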

How the data were processed

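The deposited values are intensities on a linear scale, and the submitters' processing notes name GCOS and GCRMA for how the authors made them. Versions, settings, scanning batches and any normalisation across arrays are not given in the sources used here. Of 45101 probe sets, 34958 had 1 gene symbol, 932 several and 9211 none, and only those with 1 were used, with symbols updated through the gene IDs of the RefSeq table of GRCm38.p6. Intensities were converted to log2, those under the floor of 8.22 were set to the floor ahead of any difference, and a fold against such a value is written as at least. The floor left 10926 to 11310 genes detected per array. A strain was compared with the nearest of the others (called at 2-fold) and with the mean of the other 4, and no test was run with 1 array per strain. The number of arrays limits the precision. Genes named from the lists were those 2-fold from the nearest strain in any strain and the 3 furthest from the mean of the others in BALB/CByJ, beside the members of small counts. Me1, Acaca, Mlxipl, Srebf1, Cry1, Ugt2b35, Iyd, Secisbp2, the neighbours given strain by strain and the 3 genes nearest to Crym were chosen after their values were seen. The members, lists and alternatives were chosen with earlier results of these data known. Python 3.11.15, numpy 2.4.6 and pandas 2.3.3 were used. Only the comparisons with the nearest strain and with the mean of the others were tested on simulated data.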

Additional observations from a re-analysis of the deposited data

How the results depend on the processing

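The gap of Dio1 in BALB/CByJ was -6.12 to -5.52 log2 and stayed a call under all alternatives run for it: a floor at the 99th percentile, no floor, the mean of probe sets, removal of _s_at, _x_at and _a_at probe sets, quantile normalisation, the median of the other strains or C57BL/6J alone in place of the nearest strain, leaving out each other array, and, added after seeing the data, NZW/LacJ and C57BL/6J alone. Dio1 has 1 probe set, above both floors on every array, so the floor and probe set settings could not change its gap of -5.52. Crym stayed at 1.28 to 3.39 log2 and the response list median at -0.031 to 0.12. Slc16a10, Thra and Thrsp each had 1 probe set with a difference below 0 in BALB/CByJ (-0.095, -0.024 and -0.017). Thrb had no value with the higher floor, and Ttr none without the removed probe sets. The number of response genes 2-fold lower in BALB/CByJ was 1 (Fasn) against the median of the others, 3 against C57BL/6J alone and 0 to 1 with an array left out, Fasn being the 1 gene without NZW/LacJ. Among all genes the count was 178 against the median, 245 against C57BL/6J alone, 14 at 4-fold and 109 with NZW/LacJ and C57BL/6J alone, by construction of these comparisons. No paired analysis was possible because the 5 strains are represented by single arrays. Signals near the floor (Thrb, Crym outside BALB/CByJ) give only bounds.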
